A study of Mus musculus with 6 samples.

Results

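The 40 genes described here encode enzymes that break down amino acids or carry one-carbon units in the liver. They were selected by symbol, in 7 branches: 4 genes of histidine, 4 of phenylalanine and tyrosine, 6 of tryptophan, 12 of the branched-chain amino acids, 2 of proline, 6 of glycine and serine, and 6 of methionine. All 40 were found among the 22851 genes of the deposited matrix. The liver RNA, extracted in bulk, was from male mice of the inbred strain C57BL/6J fed a high-fat diet (HFD). The treated group received ONX-0914, a compound that inhibits the immunoproteasome subunit PSMB8, at 10 mg/kg subcutaneously every other day over 6 weeks, and its comparison group, on the same diet, received vehicle. The age of the mice and the composition of the vehicle are not given in the sources used here. Each group had 3 libraries, numbered 1, 3 and 4 for ONX-0914 and 1, 2 and 4 for vehicle, although the design text gives 2 biological replicates per group. Whether each library is from its own mouse is not stated, and the p-values below then measure only the spread between libraries, which may be technical.

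Amino acids that are not needed for protein are stripped of their nitrogen and burned or turned into glucose, and the liver carries out most of this work. Each branch is a chain of enzymes in which an early, often rate-limiting step commits the amino acid and later steps feed its carbon into the citric acid cycle. The branched-chain amino acids are the exception, since their first transamination takes place largely outside the liver, while their keto acids are oxidised there. Methionine, glycine, serine, histidine and choline also supply one-carbon units: methionine is activated to S-adenosylmethionine, the methyl donor of the cell, and folate carries the units released from serine, glycine and histidine.

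The unit of the deposited values was FPKM, fragments scaled to transcript length and library size, and the values of a library summed to between 1041391 and 1247789 in ONX-0914 livers and between 993264 and 1074027 in vehicle livers. Without read totals the depth itself is unknown; relative depths read from the steps between low values were 1.01, 0.859 and 0.908 in ONX-0914 libraries 1, 3 and 4, against 1, 1.27 and 1.13 in vehicle libraries 1, 2 and 4. Library ONX-0914 3 differed from its group, since it correlated with the vehicle libraries at 0.949 to 0.958 and with ONX-0914 1 and 4 at 0.946 and 0.954. Most genes had lower values after treatment: the median log2 fold change over the 10743 tested genes was -0.64. Long transcripts were lower relative to short ones in each treated library, by 0.93, 0.25 and 0.99 log2 units in ONX-0914 1, 3 and 4 between the longest and the shortest genes, each taken as 25% of the tested genes. The same difference was at most 0.04 log2 units either way in the vehicle libraries. Member results are therefore given as deposited and under a pair of alternatives. One divides each library by the median ratio of its genes to their geometric mean (median-ratio scaling). The other removes from each library its smooth trend with transcript length (length correction). That trend was fitted to the difference from the vehicle mean and subtracted whole, so the overall shift of the library was removed too. Both alternatives therefore take out the overall shift, and the second does not show the part of length alone. In bulk tissue, fewer cells of a type and less RNA per cell cannot be told apart.

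In the deposited values, transcripts of amino acid breakdown were lower in ONX-0914 livers in each of the 7 branches. After median-ratio scaling 12.5% of the members were lower, close to the 13.7% of all tested genes. In a limma fit over all tested genes, 31 of the 40 members fell at a Benjamini-Hochberg adjusted p under 0.05, which is 77.5%, where 43.5% of all tested genes fell. The members that rose were Agxt and Sdsl, which is 5%, where 2.56% of all tested genes rose. The remaining 7, Hal, Fah, Haao, Aadat, Bckdha, Mccc2 and Cbs, did not pass the test. The median member had a log2 fold change of -0.96, beside -0.64 over all tested genes. Every member was above 1 FPKM in all 6 libraries, with values between 1.65 FPKM for Dbt in ONX-0914 1 and 5384 FPKM for Gnmt in vehicle 4. In 32 members (80%) the 3 ONX-0914 values all lay below the 3 vehicle values, beside 53.5% of all tested genes. In 2 members they all lay above, beside 4.93% of tested genes. Summed over the 40 members, the values were 7455, 9171 and 10524 FPKM in ONX-0914 1, 3 and 4, against 16367, 16177 and 20975 FPKM in vehicle 1, 2 and 4.

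**Figure D1:**
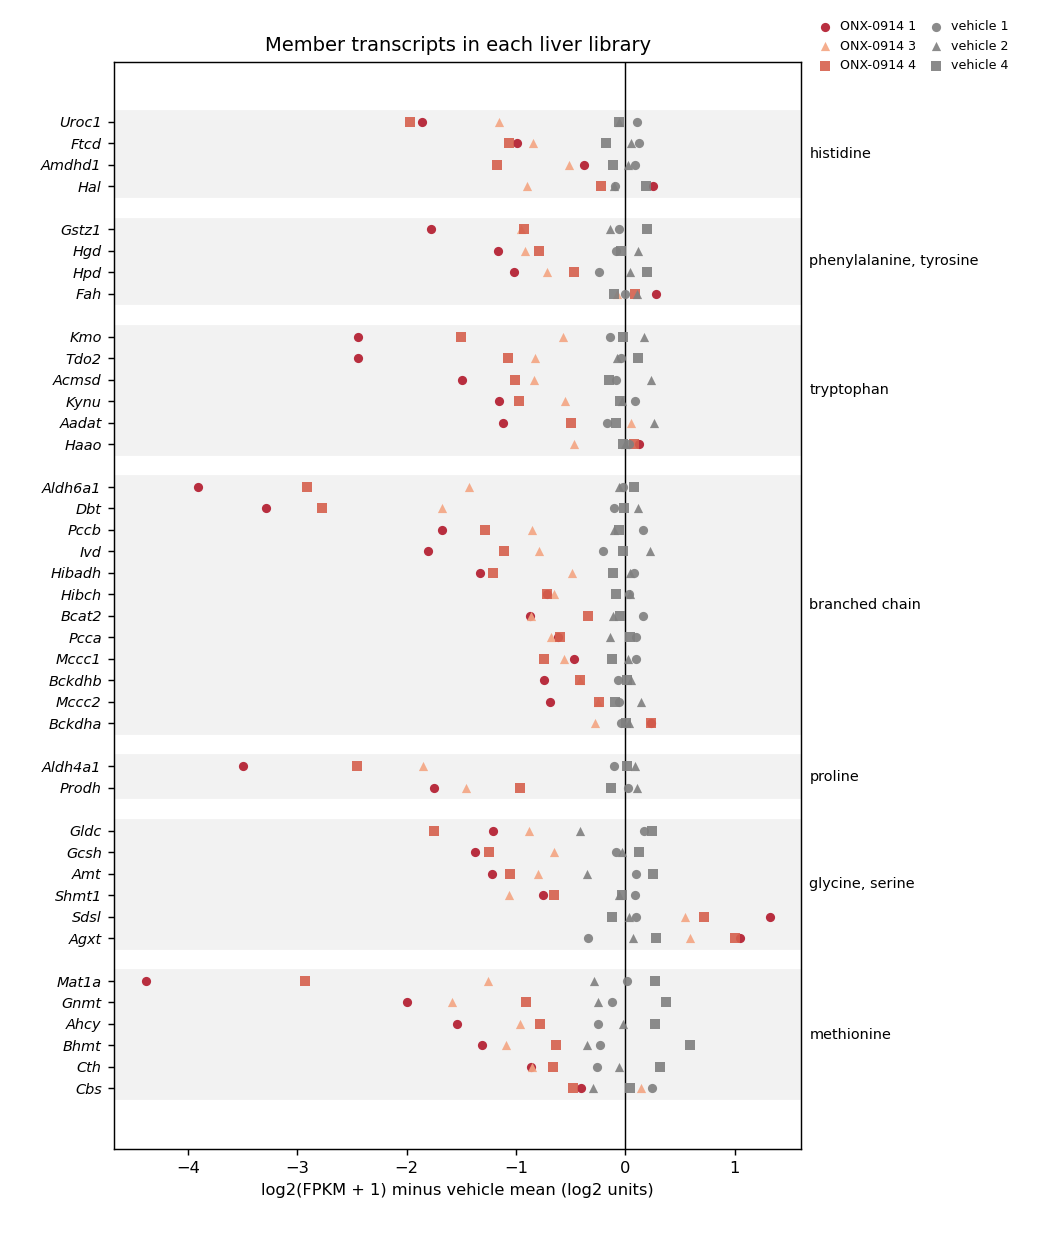
Each row is 1 of the 40 genes, grouped by branch, and each point is 1 liver library; the horizontal axis is log2(FPKM + 1) minus the vehicle mean of that gene, in log2 units. The ONX-0914 points lie left of all vehicle points in 32 rows and right of them in the rows of Sdsl and Agxt.

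The number of falls depended on how the libraries were put on one scale. After median-ratio scaling 5 members were lower, Uroc1, Dbt, Aldh6a1, Aldh4a1 and Mat1a, a share close to that of all tested genes, and 3 (7.5%) were higher, Agxt, Sdsl and Fah, beside 14.3% of tested genes. The median member then stood at -0.15, beside 0.00 for all tested genes. After length correction 9 members were lower, the same 5 with Gstz1, Pccb, Gcsh and Gnmt, beside 11.8% of tested genes. In that fit 3 were higher, Agxt, Sdsl and Cbs, beside 9.46%, and the member median was -0.41, beside 0.02 for all tested genes. Under all 3 treatments of the values 5 members (12.5%) fell, beside 9.38% of the genes tested in all 3, and 2 (5%) rose, beside 2.25%. Of the 31 that fell as deposited, 23 kept a negative log2 fold change after scaling and 8 had a positive one.

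**Figure D2:**
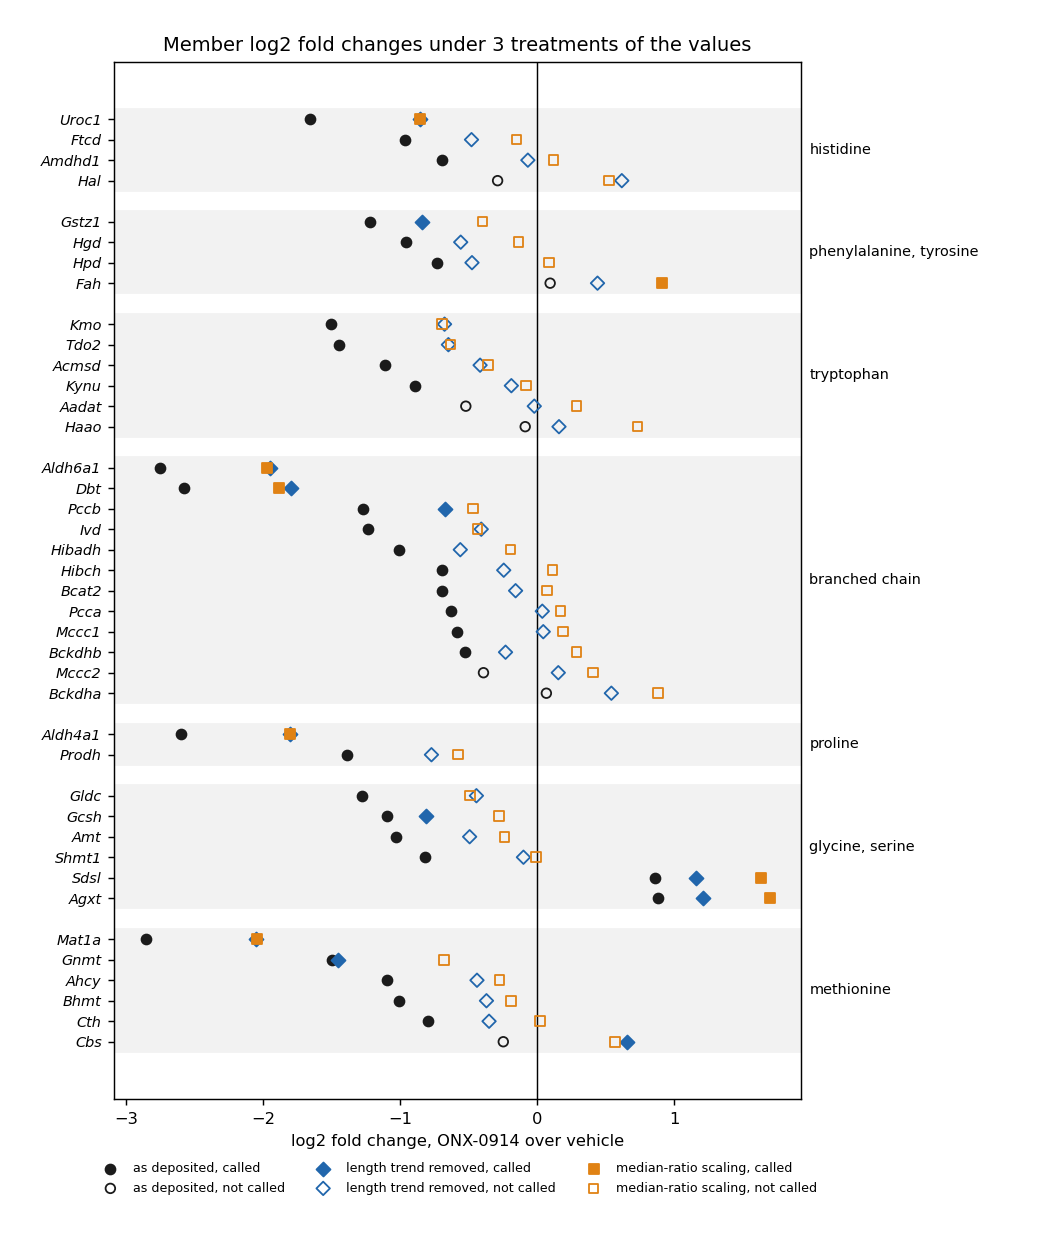
Log2 fold change of ONX-0914 over vehicle (horizontal axis) for each of the 40 genes (rows, by branch) as deposited, after length correction and after median-ratio scaling; filled symbols passed an adjusted p of 0.05. Filled symbols of all 3 kinds are seen left of 0 for Uroc1, Aldh6a1, Dbt, Aldh4a1 and Mat1a and right of 0 for Sdsl and Agxt.

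Promoter sequence was looked up for the members because 31 of the 40 fell in the deposited values, where 43.5% of all tested genes fell. After median-ratio scaling 12.5% of the members were lower, beside 13.7% of all tested genes. RefSeq windows on build GRCm38.p6 were found for 35 of the 40 genes, 40 windows in all. The 200 bases before the transcript start follow, 5′ to 3′, for 2 members that fell under all 3 treatments of the values, Aldh4a1 (chr4:139622694-139622893, plus strand) and Uroc1 (chr6:90333089-90333288, plus strand), for Agxt (chr1:93135040-93135239, plus strand), which rose under all 3, and for Fah (chr7:84605943-84606142, minus strand), which did not pass the test as deposited. Capitals mark matches to the CCAAT box (CCAAT, either strand, so ATTGG on the strand shown) and to the GC box (GGGCGG, either strand).
Aldh4a1: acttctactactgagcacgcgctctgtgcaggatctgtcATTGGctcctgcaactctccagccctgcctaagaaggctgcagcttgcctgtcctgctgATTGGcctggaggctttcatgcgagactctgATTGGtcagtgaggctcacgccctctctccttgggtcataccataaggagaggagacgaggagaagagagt
Uroc1: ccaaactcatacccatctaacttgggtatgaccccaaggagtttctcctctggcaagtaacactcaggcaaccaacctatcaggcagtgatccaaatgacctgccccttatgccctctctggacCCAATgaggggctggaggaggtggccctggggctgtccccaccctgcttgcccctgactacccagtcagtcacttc
Agxt: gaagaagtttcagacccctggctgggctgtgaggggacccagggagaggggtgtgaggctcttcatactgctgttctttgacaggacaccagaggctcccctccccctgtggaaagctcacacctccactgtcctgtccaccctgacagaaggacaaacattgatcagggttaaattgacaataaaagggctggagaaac
Fah: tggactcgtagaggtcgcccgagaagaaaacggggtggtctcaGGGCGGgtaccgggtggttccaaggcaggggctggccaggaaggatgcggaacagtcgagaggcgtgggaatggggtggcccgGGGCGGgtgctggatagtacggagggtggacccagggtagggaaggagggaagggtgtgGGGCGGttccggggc
Aldh4a1 held 3 CCAAT boxes, starting 161, 102 and 71 bases before the transcript start, and Uroc1 held 1, at 76 bases. Neither motif was matched in the Agxt window, and Fah held 3 GC boxes, at 157, 74 and 15 bases. These distances are from the RefSeq start, which can differ from the GENCODE start. The Fah window lies wholly inside the GENCODE gene (chr7:84585159-84606722, minus strand), and the Aldh4a1 and Uroc1 windows end slightly inside theirs. Over the 250 bases before the start, the CCAAT box was matched in 24 of the 40 member windows (60%), beside 33.8% of all 32851 windows. The GC box was matched in 17 member windows (42.5%), beside 32.7% of all. The TATA box (TATAAA on the sense strand) was matched in 2 member windows (5%), beside 7.59%, and an HNF4 motif (CAAAGTCCA, either strand) in 1 (2.5%), beside 0.384%. A C/EBP motif (TTGCNNAA, either strand) was matched in 2 member windows (5%), beside 9.56% of all, and a CRE (TGACGTCA) in 0, beside 1.55%. By gene, the CCAAT box was matched in 21 of the 35, since some members have more than 1 window. The 32851 windows were not limited to tested genes, so the shares do not compare members with other liver-expressed genes. The median count of CG was 7.5 in member windows and 6 in all windows. These matches describe letters in the window and were not tested against the expression values.

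The histidine chain converts histidine through urocanate to glutamate and hands a one-carbon unit to folate. Of its 4 enzymes 3 fell, beside 43.5% of all tested genes, and Hal did not pass the test. The median log2 fold change was -0.83, beside -0.64 over all tested genes. Uroc1 (chr6:90333284-90364551 on GRCm38), the urocanate hydratase of the second step, had 28.8, 47.4 and 26.6 FPKM in ONX-0914 1, 3 and 4, against 116, 103 and 103 FPKM in vehicle 1, 2 and 4. All treated values lay well below all vehicle values. Its mean was 34.3 ± 11.4 FPKM in ONX-0914 livers and 107 ± 7.28 FPKM in vehicle livers (SD, n = 3 each), a log2 fold change of -1.66 with an SE of 0.25 (limma adjusted p = 0.00209). It was the only histidine gene that stayed lower after scaling, at -0.86 (limma adjusted p = 0.0191), and after length correction, at -0.86 (limma adjusted p = 0.0139).

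Hal encodes histidine ammonia-lyase, which makes urocanate in the first step. It had 175, 78.1 and 125 FPKM in ONX-0914 1, 3 and 4, against 137, 136 and 168 FPKM in vehicle 1, 2 and 4. The groups overlapped, with ONX-0914 1 the highest and ONX-0914 3 the lowest of the 6 libraries. The means were 126 ± 48.5 FPKM in ONX-0914 livers and 147 ± 17.7 FPKM in vehicle livers, with a log2 fold change of -0.29 with an SE of 0.28 (limma adjusted p = 0.417). The ratio of Hal to Uroc1 was 6.07, 1.65 and 4.71 in ONX-0914 libraries 1, 3 and 4, against 1.19, 1.33 and 1.63 in vehicle libraries 1, 2 and 4. The 2 groups did not overlap, though ONX-0914 3 and vehicle 4 were close. Such a ratio of 2 genes within a library is free of the library's scale, though not of the trend with transcript length. Of 17 ratios computed between genes of the same branch, 11 showed no overlap between groups. The share was 45.5% over all pairs of tested genes above 0 in every library. Each of the 11 had an exact two-sided permutation p of 0.1, the smallest that 3 against 3 can give. After adjustment over the 17 it was 0.155. The pairs were not planned ahead, and many set a member that did not pass the test against one that fell. A lack of overlap was then likely beforehand, so these counts and p-values are description only.

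Amdhd1, the imidazolonepropionase of the third step, had 80.7, 73.3 and 46.1 FPKM in ONX-0914 1, 3 and 4, against 112, 108 and 97.4 FPKM in vehicle 1, 2 and 4. Its fall (log2 fold change -0.69) did not pass the test when ONX-0914 4 or any 1 of the vehicle libraries was left out, with limma adjusted p up to 0.131. Ftcd, which transfers the formimino group to folate at the end of the chain, fell to 50.8% of the vehicle mean, with 89.7, 99.4 and 84.8 FPKM in ONX-0914 1, 3 and 4, against 195, 185 and 159 FPKM in vehicle 1, 2 and 4. Neither gene passed the test after scaling or length correction.

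Phenylalanine and tyrosine are degraded through homogentisate to fumarate and acetoacetate. In this branch 3 of 4 enzymes fell, beside 43.5% of all tested genes, and Fah did not pass the test. The median log2 fold change was -0.85, beside -0.64 over all tested genes. Gstz1 encodes maleylacetoacetate isomerase, the step before the last. It had 334, 589.99 and 601 FPKM in ONX-0914 1, 3 and 4, against 1097, 1038 and 1314 FPKM in vehicle 1, 2 and 4. The highest treated value was well under the lowest vehicle value. The means were 508 ± 151 FPKM in ONX-0914 livers and 1149.7 ± 146 FPKM in vehicle livers, with a log2 fold change of -1.22 with an SE of 0.26 (limma adjusted p = 0.00638). After scaling the change was -0.40 and did not pass (limma adjusted p = 0.323); after length correction it was -0.84 and passed (limma adjusted p = 0.0468).

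Fah, the fumarylacetoacetate hydrolase that ends the chain, did not follow the other enzymes of the chain. It had 638, 498 and 558 FPKM in ONX-0914 1, 3 and 4, against 525, 568 and 488 FPKM in vehicle 1, 2 and 4, and the groups overlapped. Its mean was 564 ± 70.3 FPKM in ONX-0914 livers and 527 ± 39.8 FPKM in vehicle livers, with a log2 fold change of 0.09 with an SE of 0.19 (limma adjusted p = 0.69). After scaling it was higher, at 0.91 (limma adjusted p = 0.0384). Set against Hgd, the homogentisate dioxygenase, the Fah to Hgd ratio was 3.02, 1.99 and 2.03 in ONX-0914 libraries 1, 3 and 4, against 1.17, 1.10 and 1.06 in vehicle libraries 1, 2 and 4, with no overlap.

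Hgd itself fell to 51.6% of the vehicle mean, with 211, 250.2 and 274 FPKM in ONX-0914 1, 3 and 4, against 448, 515 and 462 FPKM in vehicle 1, 2 and 4. Hpd, the dioxygenase that makes homogentisate, was the most abundant of the branch, with 847, 1040.5 and 1239 FPKM in ONX-0914 1, 3 and 4, against 1455, 1761 and 1967 FPKM in vehicle 1, 2 and 4. The Hpd fall (-0.73) did not pass the test without ONX-0914 1, vehicle 2 or vehicle 4, with limma adjusted p up to 0.0978. Neither Hgd nor Hpd passed after scaling or length correction.

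The kynurenine pathway takes tryptophan towards NAD or full oxidation. In this branch 4 of 6 enzymes fell, Tdo2, Kmo, Kynu and Acmsd, beside 43.5% of all tested genes. Haao and Aadat did not pass the test. The median log2 fold change was -1.0, beside -0.64 over all tested genes. Kmo, the kynurenine 3-monooxygenase, had 32.6, 122 and 63.8 FPKM in ONX-0914 1, 3 and 4, against 165, 205 and 179 FPKM in vehicle 1, 2 and 4. The treated libraries spread widely among themselves, with ONX-0914 3 nearest the vehicle values. The means were 72.9 ± 45.5 FPKM in ONX-0914 livers and 183 ± 20.2 FPKM in vehicle livers, with a log2 fold change of -1.50 with an SE of 0.40 (limma adjusted p = 0.0149), which did not pass without ONX-0914 4 (limma adjusted p = 0.0525).

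Tdo2, the dioxygenase that commits tryptophan to the pathway, showed the same spread, with 166, 513 and 431 FPKM in ONX-0914 1, 3 and 4, against 885, 863 and 987 FPKM in vehicle 1, 2 and 4. Its mean fell to 40.6% of the vehicle mean (log2 fold change -1.45, limma adjusted p = 0.0134). Kynu, kynureninase, had 55.0, 84.1 and 62.5 FPKM in ONX-0914 1, 3 and 4, against 132, 121 and 119 FPKM in vehicle 1, 2 and 4. Acmsd, the decarboxylase that diverts the pathway away from NAD, was the least abundant, with 5.71, 9.56 and 8.39 FPKM in ONX-0914 1, 3 and 4, against 16.7, 21.2 and 16.0 FPKM in vehicle 1, 2 and 4. The Acmsd fall (-1.11) did not pass without vehicle 2 (limma adjusted p = 0.0558). In the limma fits after scaling or length correction no tryptophan gene passed; at an unadjusted p under 0.05 the counts were also 0.

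Haao, the dioxygenase that makes the precursor of quinolinate, had 969, 639 and 939.5 FPKM in ONX-0914 1, 3 and 4, against 905, 884 and 872 FPKM in vehicle 1, 2 and 4. Here ONX-0914 3 was the lowest of the 6 libraries and the other treated libraries were the highest. The means were 849 ± 183 FPKM in ONX-0914 livers and 887 ± 16.6 FPKM in vehicle livers, with a log2 fold change of -0.09 with an SE of 0.21 (limma adjusted p = 0.747). Haao relative to Tdo2 was 5.84, 1.24 and 2.18 in ONX-0914 libraries 1, 3 and 4, against 1.02, 1.02 and 0.884 in vehicle libraries 1, 2 and 4, with no overlap. Aadat, an aminotransferase that makes kynurenic acid, had 35.9, 81.8 and 55.8 FPKM in ONX-0914 1, 3 and 4, against 70.1, 94.8 and 74.2 FPKM in vehicle 1, 2 and 4, and the groups overlapped.

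Leucine, isoleucine and valine share a transamination and an oxidative decarboxylation and then part into separate chains. Of the 12 branched-chain genes 10 fell, beside 43.5% of all tested genes, and Bckdha and Mccc2 did not pass the test. The median log2 fold change was -0.69, beside -0.64 over all tested genes. After scaling 2 were lower, Dbt and Aldh6a1, beside 13.7% of all tested genes, and the branch median was 0.09. After length correction 3 were lower, these and Pccb, beside 11.8% of all tested genes, and the branch median was -0.24. Aldh6a1 (chr12:84430717-84451004), the methylmalonate semialdehyde dehydrogenase of the valine chain, had 5.90, 37.6 and 12.8 FPKM in ONX-0914 1, 3 and 4, against 101, 98.6 and 109 FPKM in vehicle 1, 2 and 4. Every treated library was far below the tightly grouped vehicle libraries, and the treated values differed several-fold among themselves. The means were 18.7 ± 16.7 FPKM in ONX-0914 livers and 103 ± 5.39 FPKM in vehicle livers, a log2 fold change of -2.75 with an SE of 0.51 (limma adjusted p = 0.00393). It was -1.97 after scaling (limma adjusted p = 0.0199) and -1.95 after length correction (limma adjusted p = 0.019).

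The branched-chain keto acid dehydrogenase complex, which carries out the irreversible step, had subunits that differed in their change. Its core E2 subunit Dbt (chr3:116513070-116549981) had 1.65, 7.10 and 2.77 FPKM in ONX-0914 1, 3 and 4, against 23.1, 27.0 and 24.7 FPKM in vehicle 1, 2 and 4. Dbt fell to 15.4% of its vehicle mean (log2 fold change -2.58, limma adjusted p = 0.00211) and passed after scaling, at -1.89, and after length correction, at -1.79. Bckdha, the E1 alpha subunit (chr7:25629946-25658981), had 204, 143 and 205 FPKM in ONX-0914 1, 3 and 4, against 168, 178 and 174 FPKM in vehicle 1, 2 and 4. The treated libraries lay on both sides of the vehicle libraries. Bckdha averaged 184 ± 35.4 FPKM in ONX-0914 livers and 173 ± 4.72 FPKM in vehicle livers, with a log2 fold change of 0.07 with an SE of 0.20 (limma adjusted p = 0.80). After length correction it was 0.54 (limma adjusted p = 0.118). Its transcript overlaps B3gnt8 on the other strand over 54.5% of its length, and whether counting used strand is not stated, but B3gnt8 was listed at only 0.42 FPKM in ONX-0914 livers and 0.877 FPKM in vehicle livers on average.

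Bckdhb, the E1 beta subunit, had 70.2, 88.9 and 88.6 FPKM in ONX-0914 1, 3 and 4, against 113, 123 and 119.6 FPKM in vehicle 1, 2 and 4. Dld, the E3 subunit shared with other dehydrogenase complexes, is not a member and was named here because it completes the complex, after its values were seen. It had 16.3, 36.9 and 27.1 FPKM in ONX-0914 1, 3 and 4, against 77.5, 71.8 and 67.6 FPKM in vehicle 1, 2 and 4. Relative to Bckdha in the same library, Dbt stood at 0.00808, 0.0496 and 0.0135 in ONX-0914 libraries 1, 3 and 4, against 0.137, 0.152 and 0.142 in vehicle libraries 1, 2 and 4. Bckdhb over Bckdha was 0.344, 0.621 and 0.433 in ONX-0914 libraries 1, 3 and 4, against 0.673, 0.693 and 0.688 in vehicle libraries 1, 2 and 4. Neither ratio overlapped between groups, and nor did that of Dld, and all 3 ratios were nearest the vehicle ones in ONX-0914 3. The Bckdhb fall (-0.53) did not pass without ONX-0914 1, ONX-0914 4 or any 1 vehicle library, with limma adjusted p up to 0.154.

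**Figure D3:**
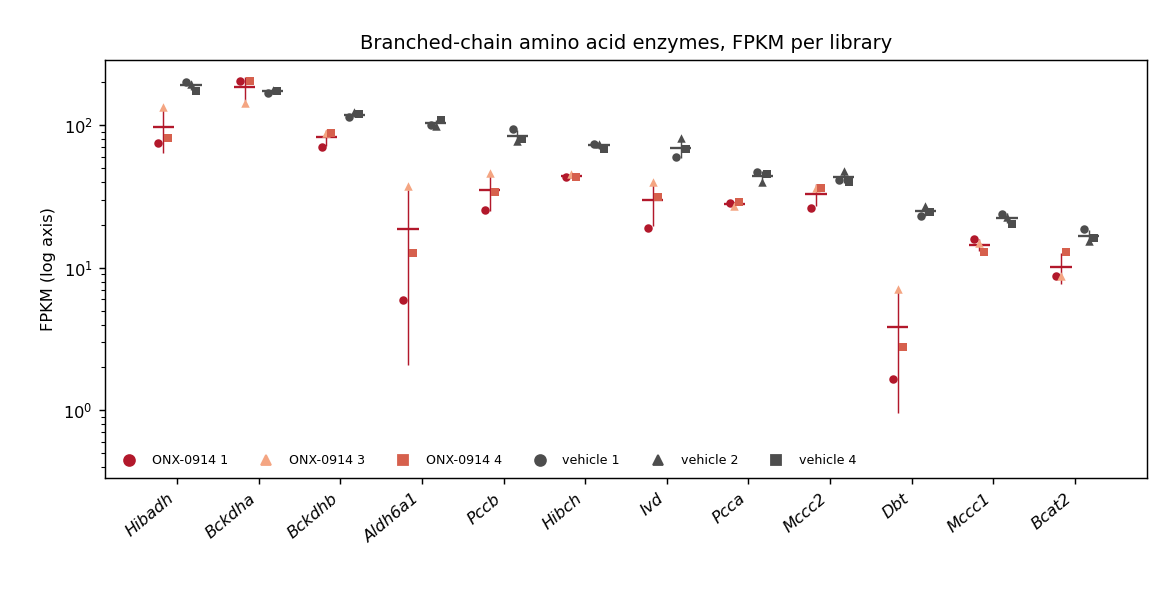
FPKM (log axis) of the 12 branched-chain genes in each library, ONX-0914 left and vehicle right within each gene; horizontal bars are means and vertical lines SD (n = 3 each). Dbt and Aldh6a1 show the widest gaps between groups, and the Bckdha groups overlap, with 143 to 205 FPKM in ONX-0914 livers and 168 to 178 FPKM in vehicle livers.

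Bcat2, the mitochondrial branched-chain aminotransferase, which is scarce in liver, had 8.71, 8.75 and 13 FPKM in ONX-0914 1, 3 and 4, against 18.8, 15.4 and 16.2 FPKM in vehicle 1, 2 and 4. In the leucine chain, Ivd, isovaleryl-CoA dehydrogenase, had 19.0, 39.7 and 31.4 FPKM in ONX-0914 1, 3 and 4, against 60.1, 81.0 and 68.2 FPKM in vehicle 1, 2 and 4. The next enzyme, methylcrotonyl-CoA carboxylase, has a biotin-carrying alpha subunit, Mccc1, and a beta subunit, Mccc2. Mccc1 had 15.9, 14.8 and 12.9 FPKM in ONX-0914 1, 3 and 4, against 23.9, 22.7 and 20.4 FPKM in vehicle 1, 2 and 4. Mccc2 had 26.2, 36.1 and 36.2 FPKM in ONX-0914 1, 3 and 4, against 41.3, 47.7 and 40.2 FPKM in vehicle 1, 2 and 4, and did not pass the test (log2 fold change -0.39, limma adjusted p = 0.16) although the groups did not overlap. The ratio of Mccc2 to Mccc1 overlapped, at 1.65 to 2.81 in ONX-0914 livers and 1.72 to 2.10 in vehicle livers (exact permutation p = 0.5). The falls of Bcat2 (-0.69) and Mccc1 (-0.59) did not pass in 4 and 5 of the 6 omissions of 1 library, with limma adjusted p up to 0.174 and 0.178.

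In the valine chain, Hibch, which hydrolyses hydroxyisobutyryl-CoA, had 43.6, 45.6 and 43.4 FPKM in ONX-0914 1, 3 and 4, against 74.0, 74.4 and 68.1 FPKM in vehicle 1, 2 and 4. Hibch was among the most even members within both groups, yet its fall (-0.69) did not pass without vehicle 1 or vehicle 2, with limma adjusted p up to 0.0711. Hibadh, the dehydrogenase that follows, had 74.9, 135 and 81.5 FPKM in ONX-0914 1, 3 and 4, against 200.3, 195 and 175 FPKM in vehicle 1, 2 and 4. Propionyl-CoA carboxylase, which serves isoleucine, valine and methionine, also has a pair of subunits. Pcca had 28.4, 27.1 and 28.8 FPKM in ONX-0914 1, 3 and 4, against 47.3, 39.8 and 45.3 FPKM in vehicle 1, 2 and 4. Pccb had 25.6, 46.0 and 33.8 FPKM in ONX-0914 1, 3 and 4, against 94.1, 77.9 and 80.5 FPKM in vehicle 1, 2 and 4. The Pccb to Pcca ratio was 0.900 to 1.70 in ONX-0914 livers and 1.78 to 1.99 in vehicle livers, without overlap. The Pcca fall (-0.63) did not pass without ONX-0914 4 or any 1 vehicle library, with limma adjusted p up to 0.122.

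Both proline enzymes fell, beside 43.5% of all tested genes. The branch had the lowest summed level relative to vehicle of the 7, at 28.7%. Aldh4a1 (chr4:139622866-139649690), which converts the proline breakdown product to glutamate, had 9.35, 31.3 and 20.3 FPKM in ONX-0914 1, 3 and 4, against 108, 123 and 117 FPKM in vehicle 1, 2 and 4. Its highest treated value was under all vehicle values by a wide margin. The means were 20.3 ± 11 FPKM in ONX-0914 livers and 116 ± 7.61 FPKM in vehicle livers, a log2 fold change of -2.60 with an SE of 0.36 (limma adjusted p = 0.0018). It passed after scaling, at -1.81 (limma adjusted p = 0.0117), and after length correction, at -1.80 (limma adjusted p = 0.00904). GENCODE holds a transcript, Gm21969, that shares 47.2% of the Aldh4a1 transcript sequence and is not a row of the matrix, so how shared reads were counted is not known.

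Prodh, the proline dehydrogenase of the first step, had 38.2, 46.9 and 66.6 FPKM in ONX-0914 1, 3 and 4, against 133, 141 and 119 FPKM in vehicle 1, 2 and 4. The treated values lay between 38.2 and 66.6 FPKM and did not reach the vehicle range. It averaged 50.6 ± 14.5 FPKM in ONX-0914 livers and 131 ± 11.2 FPKM in vehicle livers, a log2 fold change of -1.39 with an SE of 0.24 (limma adjusted p = 0.00304). It did not pass after scaling (-0.58, limma adjusted p = 0.155) or after length correction (-0.77, limma adjusted p = 0.0563). The Aldh4a1 to Prodh ratio was 0.245, 0.667 and 0.305 in ONX-0914 libraries 1, 3 and 4, against 0.810, 0.874 and 0.982 in vehicle libraries 1, 2 and 4, with no overlap.

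Glycine and serine enzymes split in direction: 4 fell, the glycine cleavage genes Gldc, Amt and Gcsh and the hydroxymethyltransferase Shmt1, and 2 rose, Agxt and Sdsl. Over all tested genes 43.5% fell and 2.56% rose. The summed level of the branch was 88.7% of vehicle. Agxt (chr1:93135240-93145421), the alanine-glyoxylate aminotransferase that turns glyoxylate into glycine, had 309, 225 and 300.2 FPKM in ONX-0914 1, 3 and 4, against 117, 156 and 181 FPKM in vehicle 1, 2 and 4. Every treated library was above every vehicle library, with ONX-0914 3 the lowest of the treated ones. The means were 278 ± 46.3 FPKM in ONX-0914 livers and 151 ± 31.9 FPKM in vehicle livers, a log2 fold change of 0.88 with an SE of 0.23 (limma adjusted p = 0.0136). It was 1.70 after scaling (limma adjusted p = 0.0126) and 1.21 after length correction (limma adjusted p = 0.0131). The rise did not pass without ONX-0914 4 or vehicle 1, with limma adjusted p up to 0.0694.

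Sdsl (chr5:120458186-120472810), a serine dehydratase-like enzyme, had 32.7, 18.7 and 21.3 FPKM in ONX-0914 1, 3 and 4, against 13.4, 12.8 and 11.4 FPKM in vehicle 1, 2 and 4. All treated values were higher, ONX-0914 1 by most. It averaged 24.2 ± 7.44 FPKM in ONX-0914 livers and 12.5 ± 1.03 FPKM in vehicle livers, a log2 fold change of 0.86 with an SE of 0.26 (limma adjusted p = 0.0244). It was 1.63 after scaling (limma adjusted p = 0.0123) and 1.16 after length correction (limma adjusted p = 0.0143). Its rise did not pass in 5 of the 6 omissions of 1 library, all but that of ONX-0914 3, with limma adjusted p up to 0.087.

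The glycine cleavage system splits glycine into carbon dioxide, ammonia and a one-carbon unit on folate. Gldc, its decarboxylase, had 19.9, 25.2 and 13.3 FPKM in ONX-0914 1, 3 and 4, against 53.3, 35.3 and 56.1 FPKM in vehicle 1, 2 and 4. The groups did not overlap, and vehicle 2 was the lowest vehicle library. Gldc averaged 19.5 ± 5.96 FPKM in ONX-0914 livers and 48.2 ± 11.3 FPKM in vehicle livers, a log2 fold change of -1.28 with an SE of 0.29 (limma adjusted p = 0.00792). Amt, the aminomethyltransferase, had 15.8, 21.5 and 17.9 FPKM in ONX-0914 1, 3 and 4, against 41.0, 29.7 and 45.8 FPKM in vehicle 1, 2 and 4. Gcsh, the lipoyl carrier protein, had 60.4, 101 and 66.0 FPKM in ONX-0914 1, 3 and 4, against 149, 155 and 173 FPKM in vehicle 1, 2 and 4. The ratios of these genes overlapped between groups: Amt over Gldc was 0.796 to 1.34 in ONX-0914 livers and 0.770 to 0.842 in vehicle livers (exact permutation p = 0.4), and Gcsh over Gldc was 3.04 to 4.96 in ONX-0914 livers and 2.79 to 4.39 in vehicle livers (exact permutation p = 0.6). A p of this size does not show that the ratios were the same.

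Shmt1, which moves a one-carbon unit between serine and folate in the cytosol, had 96.2, 77.7 and 104 FPKM in ONX-0914 1, 3 and 4, against 173, 156 and 160.1 FPKM in vehicle 1, 2 and 4. No treated library reached the vehicle range, and ONX-0914 3 was the lowest. The means were 92.5 ± 13.3 FPKM in ONX-0914 livers and 163 ± 8.74 FPKM in vehicle livers, a log2 fold change of -0.82 with an SE of 0.19 (limma adjusted p = 0.00922). After scaling it was -0.01 (limma adjusted p = 0.985). Gldc, Amt and Shmt1 did not pass under either alternative, and Gcsh passed after length correction (-0.82, limma adjusted p = 0.0369) but not after scaling.

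Methionine enzymes had the second lowest summed level relative to vehicle, at 40.1%. Of the 6, 5 were lower, beside 43.5% of all tested genes, and Cbs did not pass the test. After scaling 1 was lower, Mat1a, beside 13.7% of all tested genes. After length correction 2 were lower, Mat1a and Gnmt, beside 11.8%, and 1 was higher, Cbs, beside 9.46%. Ahcy, Bhmt and Cth passed under neither alternative. Mat1a (chr14:41105035-41124412), the liver enzyme that makes S-adenosylmethionine, had 55.0, 489.8 and 153 FPKM in ONX-0914 1, 3 and 4, against 1185, 960.2 and 1412 FPKM in vehicle 1, 2 and 4. ONX-0914 1 was lower than ONX-0914 3 by several-fold, and both were below every vehicle library. The means were 232 ± 228 FPKM in ONX-0914 livers and 1186 ± 226 FPKM in vehicle livers, a log2 fold change of -2.86 with an SE of 0.62 (limma adjusted p = 0.00712), the lowest of the 40 members. It was -2.04 after scaling (limma adjusted p = 0.034), -2.05 after length correction (limma adjusted p = 0.0357), and -1.26 in ONX-0914 3 alone against vehicle (limma adjusted p = 0.00908).

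S-adenosylmethionine is used by Gnmt, the glycine N-methyltransferase that buffers its level, and the product is cleared by Ahcy, the adenosylhomocysteinase. Gnmt (chr17:46725664-46729168) was the most abundant member, with 1041, 1382 and 2210.4 FPKM in ONX-0914 1, 3 and 4, against 3825, 3496 and 5384 FPKM in vehicle 1, 2 and 4. Gnmt fell to 36.5% of its vehicle mean (log2 fold change -1.50, limma adjusted p = 0.00527), and after length correction it was -1.45 (limma adjusted p = 0.015), though it did not pass after scaling (-0.68, limma adjusted p = 0.212). Its transcript, of 1035 bases, was the shortest of the members. Ahcy had 394, 589.8 and 670.3 FPKM in ONX-0914 1, 3 and 4, against 968, 1133 and 1383 FPKM in vehicle 1, 2 and 4. Gm4737, a copy that shares 81.9% of the Ahcy transcript, averaged 103.8 FPKM in ONX-0914 livers and 211.1 FPKM in vehicle livers, so the split of reads between the 2 is uncertain. Mat1a over Ahcy was 0.140, 0.830 and 0.228 in ONX-0914 libraries 1, 3 and 4, against 1.22, 0.847 and 1.02 in vehicle libraries 1, 2 and 4; the groups did not overlap, but ONX-0914 3 and vehicle 2 were nearly level.

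Bhmt, which remethylates homocysteine with betaine, had 936, 1096 and 1504 FPKM in ONX-0914 1, 3 and 4, against 1980.5, 1822 and 3509 FPKM in vehicle 1, 2 and 4. Its fall (-1.01) did not pass without ONX-0914 1 or vehicle 4, with limma adjusted p up to 0.0811, and a copy, Gm5096, not a row of the matrix, shares 75.1% of its transcript. Homocysteine leaves the cycle through Cbs and Cth, which make cystathionine and cleave it to cysteine. Cth had 141, 142 and 162 FPKM in ONX-0914 1, 3 and 4, against 215, 248 and 321 FPKM in vehicle 1, 2 and 4, a fall (-0.79) that did not pass without vehicle 4 (limma adjusted p = 0.0692). Cbs had 115, 169 and 109.6 FPKM in ONX-0914 1, 3 and 4, against 181, 125 and 158 FPKM in vehicle 1, 2 and 4, and the groups overlapped. The Cbs means were 131 ± 32.8 FPKM in ONX-0914 livers and 155 ± 28.5 FPKM in vehicle livers, with a log2 fold change of -0.25 with an SE of 0.24 (limma adjusted p = 0.403). After length correction Cbs, whose transcript of 6226 bases was the longest of the members, was higher, at 0.65 (limma adjusted p = 0.0391).

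**Figure D4:**
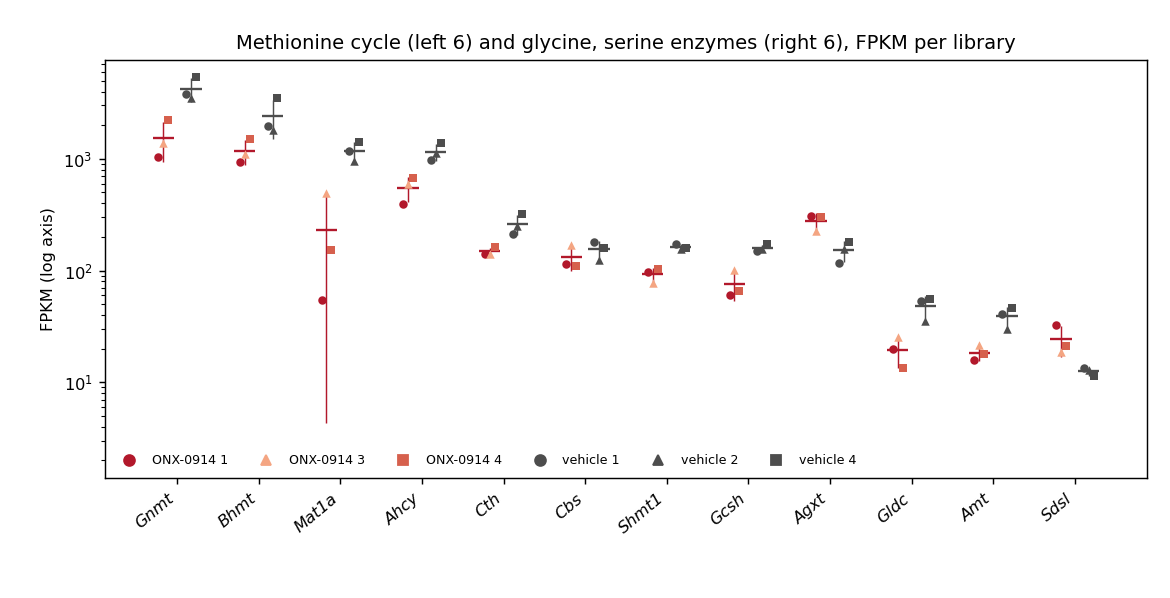
FPKM (log axis) of the 6 methionine genes (left) and the 6 glycine and serine genes (right) in each library, ONX-0914 left and vehicle right within each gene; bars are means and lines SD (n = 3 each). Mat1a shows the widest treated spread, from 55.0 to 489.8 FPKM, and Agxt and Sdsl are the genes with all ONX-0914 points above all vehicle points.

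The treated libraries did not contribute equally. Among the 31 members that fell, ONX-0914 1 had the lowest value in 23, and ONX-0914 3 was nearest the vehicle mean in 18 (58.1%), where ONX-0914 3 was nearest in 78.3% of all genes that fell. The median member lay 1.16, 0.81 and 0.85 log2 units below its vehicle mean in ONX-0914 1, 3 and 4, where the median tested gene lay 0.74, 0.38 and 0.79 below. Set alone against the 3 vehicle libraries, ONX-0914 3 had 26 members lower, beside 27.9% of all tested genes, and 0 higher, beside 2.88%; at an unadjusted p under 0.05 that limma fit had 2 higher. In that fit Agxt was at 0.59 (limma adjusted p = 0.109) and Sdsl at 0.55 (limma adjusted p = 0.0682), and the lone library was assumed to vary like the vehicle ones. In all 6 omissions of 1 library, 20 of the 33 called members passed the test and 13 did not in at least 1. Leaving out ONX-0914 3 ended no call, whereas leaving out vehicle 2 or vehicle 4 ended 9 each.

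Longer members were lower, as longer genes were overall. Over the 40 members the log2 fold change correlated with log10 transcript length at a Pearson r of -0.39 and a Spearman rho of -0.43, and over all tested genes at -0.38 and -0.40; these are correlations across genes, which share the same 6 libraries. The members' median transcript was 2353 bases, beside 2906 bases for all tested genes, so they were not long as a set. All 9 members of 3000 to 4000 bases fell, with log2 fold changes between -2.86 and -1.24. That window holds the 5 members that fell under all 3 treatments of the values and ends short of Hal and Cbs. Its figures are description only and do not test for a change beyond the length trend. Tested genes of that length numbered 1903, of which 52.7% fell, with a median of -0.79 and a 5th percentile of -2.14. Mat1a, Aldh6a1, Aldh4a1 and Dbt lay below that percentile. Hal and Cbs, at 5319 and 6226 bases, were the 2 longest members and did not pass the test. The part that transcript length plays in the member values beyond the trend removed here was not tested.

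**Figure D5:**
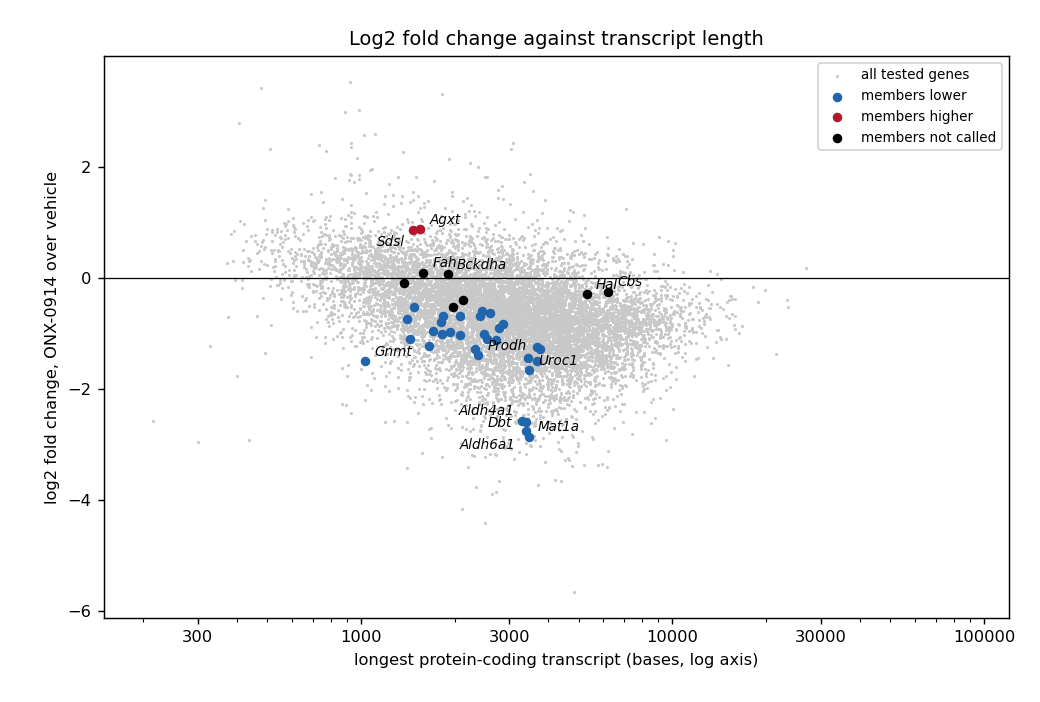
Log2 fold change of ONX-0914 over vehicle (vertical axis) against the longest protein-coding transcript in bases (horizontal log axis) for tested genes (grey) and the 40 members (coloured by call). Mat1a, Aldh6a1, Aldh4a1 and Dbt lie together at about 3000 to 4000 bases below -2, and Agxt and Sdsl above 0.

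Other enzymes and carriers of the same pathways were counted as well. Of 92 tested genes outside the 40, 52 fell, 2 rose and 38 did not pass, with a median log2 fold change of -0.66. Over all tested genes 43.5% fell and 2.56% rose, with a median of -0.64. After scaling 13 of the 92 were lower and 8 higher, beside 13.7% and 14.3% of all tested genes. After length correction 18 were lower and 5 higher, beside 11.8% and 9.46%. In the wider branched-chain list 10 of 15 fell. Abat, the GABA transaminase that also acts in valine breakdown, had 1.24, 7.88 and 6.19 FPKM in ONX-0914 1, 3 and 4, against 40.5, 47.8 and 58.1 FPKM in vehicle 1, 2 and 4 (log2 fold change -3.24, limma adjusted p = 0.0019). Acadsb, the short/branched-chain acyl-CoA dehydrogenase, stood at -2.44, Ppm1k, the phosphatase that activates the keto acid dehydrogenase complex, at -2.18, and Mmut, methylmalonyl-CoA mutase, at -1.94. The 3 with a known transcript length, Abat, Acadsb and Ppm1k, were lower under both alternatives, and Mmut was lower after scaling.

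Of 20 further methionine and sulphur genes 13 fell and 1 rose, where 43.5% of all tested genes fell and 2.56% rose. Bhmt2, which remethylates homocysteine from S-methylmethionine, had 12.6, 40.8 and 34.2 FPKM in ONX-0914 1, 3 and 4, against 169.8, 151 and 165 FPKM in vehicle 1, 2 and 4 (log2 fold change -2.59, limma adjusted p = 0.00199). Nnmt, which spends S-adenosylmethionine on nicotinamide, rose, with 704, 681 and 1231 FPKM in ONX-0914 1, 3 and 4, against 206, 326 and 369 FPKM in vehicle 1, 2 and 4 (log2 fold change 1.52, limma adjusted p = 0.00485). Both calls were made under both alternatives too. Suox, sulphite oxidase, stood at -1.73 and was lower under both alternatives. Adi1, of the methionine salvage pathway, was at -1.47 and did not pass after scaling. Among 14 further glycine, serine and threonine genes 6 fell and 1 rose: Chdh, which starts the oxidation of choline to betaine, was at -2.09, Glyctk, glycerate kinase, at -1.55, and Psph, the phosphatase of the last step of serine synthesis, at 1.12 (limma adjusted p = 0.0251). These 3 passed under both alternatives. Psph, however, did not pass without ONX-0914 1, vehicle 2 or vehicle 4, with limma adjusted p up to 0.0934. After scaling 2 of the 14 were lower and 4 higher, beside 13.7% and 14.3% of all tested genes. After length correction 2 were lower and 2 higher, beside 11.8% and 9.46%. Of 11 folate genes 7 fell, among them the mitochondrial folate carrier Slc25a32 at -1.52 and the polyglutamate synthase Fpgs at -1.48; Fpgs was lower under both alternatives and Slc25a32 under neither.

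In the wider tryptophan and lysine list 5 of 12 fell, where 43.5% of all tested genes fell. The falls included Dhtkd1 of lysine breakdown at -2.02 and Afmid, the kynurenine formamidase, at -1.84. Ido2, an indoleamine dioxygenase, was at -1.72, and Ddc, the aromatic amino acid decarboxylase, at -1.07. Of these Ddc did not pass under either alternative and the other genes passed under both. After scaling 3 of the 12 were lower and 1 higher, and after length correction 3 and 2, with list medians of 0.27 and 0.09. Kyat3, named after its values were seen, did not pass as deposited (0.54, limma adjusted p = 0.0599). It was higher after scaling, at 1.35 (limma adjusted p = 0.00683), and after length correction, at 1.41 (limma adjusted p = 0.004). Of 7 further aromatic genes 5 fell, including Fahd1, a relative of Fah, at -0.98 and Qdpr, the dihydropteridine reductase, at -0.87; both passed after length correction but not after scaling. Of 6 proline and ornithine genes 1 fell, Oat, ornithine aminotransferase, at -1.04, which did not pass under either alternative or without vehicle 1 or vehicle 4 (limma adjusted p up to 0.0723). Of 8 general aminotransferases and deaminases 5 fell, among them Got2, the mitochondrial aspartate aminotransferase, at -1.75 and Gpt2, the mitochondrial alanine aminotransferase, at -1.61. Got2 passed after length correction but not after scaling, and Gpt2 under neither alternative nor without ONX-0914 4 (limma adjusted p = 0.0536).

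Amino acid carriers and known regulators were also measured. Of 13 carriers 7 fell and 1 rose, where 43.5% of all tested genes fell and 2.56% rose. Slc25a44, the mitochondrial carrier of branched-chain amino acids, had 0.99, 7.0 and 3.79 FPKM in ONX-0914 1, 3 and 4, against 27.4, 19.8 and 21.3 FPKM in vehicle 1, 2 and 4 (log2 fold change -2.48, limma adjusted p = 0.00382). Slc25a13, the aspartate-glutamate carrier, was at -2.46, Slc25a15, the ornithine carrier, at -1.87, and Slc38a3, a glutamine transporter, at -1.78; Slc38a3 did not pass after scaling, and the other carriers named passed under both alternatives. The rise was Slc3a1, a subunit of the cystine transporter, at 0.94 (limma adjusted p = 0.012), named after its values were seen, which did not pass without vehicle 1 (limma adjusted p = 0.0528). Of 15 regulators 7 fell and 1 rose, also named after its values were seen: Atf4, a transcription factor of amino acid shortage, had 149.6, 123 and 115 FPKM in ONX-0914 1, 3 and 4, against 94.6, 70.2 and 68.0 FPKM in vehicle 1, 2 and 4 (log2 fold change 0.74, limma adjusted p = 0.021). Atf4 was higher under both alternatives but did not pass without ONX-0914 1, vehicle 2 or vehicle 4, with limma adjusted p up to 0.0868. Among the falls were Hnf4a at -2.23, the glucocorticoid receptor gene Nr3c1 at -2.18, Cebpa at -1.51 and Ppara at -1.26. Of these Nr3c1 was lower under both alternatives, and Hnf4a, Cebpa and Ppara under neither. The Hnf4a fall also did not pass without ONX-0914 1, ONX-0914 4 or vehicle 4, with limma adjusted p up to 0.0677.

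Marker levels place these values in the tissue. Over all tested genes 43.5% fell and 2.56% rose as deposited. Of the 12 hepatocyte markers tested 2 fell, 2 rose and 8 did not pass, with a median log2 fold change of 0.20. After scaling 6 rose, 0 fell and the median was 1.02; after length correction 3 rose and 0 fell. At an unadjusted limma p under 0.05, 2 were lower in either fit. Their summed level was 120601 to 168962 FPKM in ONX-0914 livers and 126730.00 to 130992 FPKM in vehicle livers, and none was at 0. The libraries are thus liver by their markers. Amino acid breakdown differs along the liver lobule, so zone markers were counted too. Of 12 periportal markers 7 fell and 1 rose, with summed levels of 3769 to 5572 FPKM in ONX-0914 livers and 5704 to 6497 FPKM in vehicle livers. Of 13 pericentral markers 7 fell and 1 rose, with 3211 to 5192 FPKM in ONX-0914 livers and 5777 to 6281 FPKM in vehicle livers. After scaling 0 periportal markers fell and 2 rose, and 1 pericentral marker fell and 1 rose; after length correction the counts were 0 and 1 periportal and 3 and 1 pericentral. In both limma fits 2 periportal markers were lower at an unadjusted p under 0.05. As deposited, both zones were lower along with the members, and their part in the result was not tested.

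Markers of other cell types moved as well, where 43.5% of all tested genes fell as deposited. All 13 endothelial markers tested fell, with a summed level of 37.2 to 69.5 FPKM in ONX-0914 livers and 245 to 251 FPKM in vehicle livers. Of 12 stellate cell and fibroblast markers 9 fell (87.1 to 191 FPKM in ONX-0914 livers, 358 to 429.7 FPKM in vehicle livers), and of 12 Kupffer cell and macrophage markers 8 fell (644 to 1096 FPKM in ONX-0914 livers, 1201 to 1873 FPKM in vehicle livers). After scaling 10 endothelial, 4 stellate and 3 Kupffer cell markers fell, and after length correction 10, 4 and 6. The shares lower over all tested genes were then 13.7% and 11.8%. No marker of these 3 lists was at 0. Neutrophil markers summed to 173 to 4765 FPKM in ONX-0914 livers and 291 to 1815 FPKM in vehicle livers, with 0 of 8 called by limma, 1 at an unadjusted p under 0.05, and Ly6g at 0 in at least 1 treated library. Of 5 tested cholangiocyte markers 1 fell and 1 rose (74.3 to 125 FPKM in ONX-0914 livers, 73.5 to 79.1 FPKM in vehicle livers), and markers at 0 in at least 1 treated library included Cftr. Lymphocyte markers (40.6 to 54.2 FPKM in ONX-0914 livers, 33.9 to 52.1 FPKM in vehicle livers) and erythroid markers (308 to 437 FPKM in ONX-0914 livers, 169 to 626 FPKM in vehicle livers) had 0 of 4 and 0 of 5 called by limma, also at an unadjusted p under 0.05, and markers at 0 in at least 1 treated library included Cd3e, Cd79a, Ms4a1 and Slc4a1. The part of these cell types in the member values was not tested.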

How the data were processed

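Liver RNA was measured in 6 libraries, 3 from ONX-0914 and 3 from vehicle mice on a high-fat diet. Per the labels' protocols, TRIzol-extracted RNA was enriched for mRNA and sequenced as paired reads of 150 bases. Tools listed in the submitters' processing notes are HISAT2 2.0.1, featureCounts 1.6.0, edgeR, cutadapt 1.11 and FastQC 0.11.5, with builds GRCm38 and mm10. Their roles, the annotation and strand use are not given in the sources used here. A matrix deposited by the authors holds FPKM values, a unit read from the values, and columns were matched to samples by name.

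Genes above 1 FPKM in at least 3 libraries (10743) were tested, two-sided, on log2(FPKM + 1) of the deposited values with limma 3.58.1 (R 4.3.3, variance trend, no block), and called at a Benjamini-Hochberg adjusted p under 0.05. On this scale the change of a low gene is understated. Alternatives were a pseudocount of 0.1, no filter, median-ratio scaling, removal of the length trend (lowess span 0.5 on GENCODE M21 transcripts, known for 97.6% of tested genes), a replicate block, each library left out, and ONX-0914 3 alone. Removal of the length trend also took out each library's overall shift from the vehicle mean. No 2 libraries were identical over all genes.

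Any member could be named; full statistics are given for the largest and smallest change in each branch and for each rise, and up to 4 called genes are named per other list. The 40 genes, their branches and all other lists were chosen with earlier results of these data known.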

Additional observations from a re-analysis of the deposited data

How the results depend on the processing

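With no read totals, scale between libraries cannot be fixed from these values, and the counts depend on it. Members lower, 31 as deposited, numbered 5 after median-ratio scaling and 9 with the length trend removed; members higher, 2 as deposited, numbered 0 in ONX-0914 3 alone. Over all genes, 4673 lower became 1471 after scaling, 1240 with the length trend removed and 2992 in ONX-0914 3 alone, and 275 higher became 1538 after scaling, 991 with the length trend removed and 604 with the replicate block. A pseudocount of 0.1 gave 31 lower and 2 higher members, and no filter gave 29 and 2. With that pseudocount 40.3% of tested genes were lower, and their median of -0.80 was nearer the member median of -0.97. With no filter 29.1% of tested genes were lower, and the medians were -0.37 for tested genes and -0.96 for members. Leaving out 1 library gave 23 to 32 members lower, 0 to 2 higher, 2590 to 6514 genes lower and 92 to 740 higher; Aadat passed as lower without ONX-0914 3.

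Log2 fold changes that reversed in sign after scaling were Hal 0.53, Amdhd1 0.12, Hpd 0.085, Haao 0.73, Aadat 0.29, Bcat2 0.072, Bckdhb 0.29, Mccc1 0.19, Mccc2 0.41, Pcca 0.17, Hibch 0.11, Cth 0.021 and Cbs 0.57. With the length trend removed they were Hal 0.62, Haao 0.16, Mccc1 0.044, Mccc2 0.15, Pcca 0.037 and Cbs 0.65. In ONX-0914 3 alone they were Fah -0.080, Aadat 0.049, Bckdha -0.27 and Cbs 0.14. Over the omissions of 1 library Hal ranged from -0.56 to 0.015 and Haao from -0.20 to 0.10, both positive only without ONX-0914 3. Bckdha ranged from -0.019 to 0.24, with negative values without ONX-0914 1 or 4.

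Replicate numbers 1 and 4 occur in both groups, but the labels do not say that a number pairs libraries. Deviations from the group means correlated at 0.0011 and 0.13 between same-numbered libraries. Between differently numbered libraries of the 2 groups the correlations were -0.17 to 0.10. With that replicate block 30 members were lower, 28 of them shared with the fit without it, 2 were higher, and Haao turned to 0.10. In that fit Bcat2, Bckdhb and Mccc1 did not pass (limma adjusted p = 0.0595, 0.0550 and 0.0559), and Aadat and Cbs passed as lower (limma adjusted p = 0.0340 and 0.0411).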
